A study of Mus musculus with 5 samples.

Results

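The transcripts described here encode enzymes that write DNA methylation, a protein that guides Dnmt1 to DNA, and an enzyme that clears the methylation by-product. They were measured in mouse epiblast stem cells after a change of medium for 3 h. The members are Dnmt1, Uhrf1, Dnmt3a, Dnmt3b and Ahcy, and they were chosen by gene symbol. Every probe carrying such a symbol in the platform annotation was taken, which gave 5 of the 16593 genes named on the array and 8 of 23978 named probes (25697 probes in all): 1 for Dnmt1, 2 each for Uhrf1, Dnmt3a and Dnmt3b, and 1 for Ahcy. Detection on all 5 arrays was reached by 5 of the 8 probes, and on 1 array or more by 6, so that 4 of the 5 genes could be described by level. A probe counted as detected on an array when its detection p-value, a comparison with the negative-control beads of that array, was under 0.01.

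The cells were epiblast stem cells of the line E3, a primed pluripotent line (the label of the untreated sample adds a hybrid background), and all cultures shared growth in KSR medium (knockout serum replacement) with 5 ng/ml FGF2 on inactivated CF1 mouse embryonic fibroblasts at low density. Once semiconfluent, the cultures were given a new medium for 3 h, and the labels list no FGF2 in any of the 5 replacement media. The untreated culture received KSR medium without supplements, and the PD culture received 1 uM PD0325901, an inhibitor of the kinase MEK. The CH culture received 3 uM CHIR99021, an inhibitor of GSK3, and the LIF culture received 1000 U/ml LIF, a cytokine that signals through STAT3. The PCL culture received all 3 agents at these doses. Total RNA of each culture was hybridised to 1 bead array, so differences between 2 conditions were measured without replicates, in a single line.

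DNA methylation in mammals is the addition of a methyl group to cytosine, mostly where cytosine precedes guanine (CpG). Dnmt3a and Dnmt3b set new marks, and Dnmt1, guided to newly replicated DNA by Uhrf1, copies existing ones. The methyl group comes from S-adenosylmethionine, and the S-adenosylhomocysteine left behind inhibits methyltransferases until Ahcy hydrolyses it to adenosine and homocysteine. In the mouse, Dnmt3b is a prominent de novo enzyme of the post-implantation epiblast, the tissue from which epiblast stem cells are derived.

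The member promoters differed widely in CpG content, and those of Ahcy and Dnmt3b are printed because Ahcy was the only member called different between conditions and Dnmt3b was measured by 2 probes that differed in direction. Each window holds 250 bases before and 50 bases after a RefSeq start site (build GRCm38.p6), 5′ to 3′ on the strand of the gene, with every CpG in capitals. The Ahcy window lies on the minus strand at chr2:155074448-155074747, and the Dnmt3b window on the plus strand at chr2:153649199-153649498.
Ahcy: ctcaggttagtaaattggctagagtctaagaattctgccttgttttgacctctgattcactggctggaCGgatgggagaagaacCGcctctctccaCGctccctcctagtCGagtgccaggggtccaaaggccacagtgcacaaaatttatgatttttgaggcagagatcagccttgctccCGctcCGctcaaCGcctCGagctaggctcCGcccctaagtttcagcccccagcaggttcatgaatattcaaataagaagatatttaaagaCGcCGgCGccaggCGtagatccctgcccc
Dnmt3b: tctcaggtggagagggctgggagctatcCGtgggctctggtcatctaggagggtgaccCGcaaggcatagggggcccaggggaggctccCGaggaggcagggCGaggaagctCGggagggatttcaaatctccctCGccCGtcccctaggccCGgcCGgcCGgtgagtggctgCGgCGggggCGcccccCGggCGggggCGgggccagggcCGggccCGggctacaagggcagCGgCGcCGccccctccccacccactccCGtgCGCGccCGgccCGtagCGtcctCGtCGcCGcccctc

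The Ahcy window held 13 CpG and the Dnmt3b window 30, against a median of 7 over 32851 mouse promoter windows of the same length. All 5 members matched the RefSeq promoter table, with 10 windows in all. The most CpG-dense was a Dnmt3a window with 47, and the least a Dnmt1 window with 2, which is 1 of 3 start regions listed for that gene. The motif TTCNNNGAA, the palindrome bound by STAT proteins, was searched on both strands and was found in 0 of the 10 member windows and in 8.30% of all windows. The TCF/LEF motif CTTTGAT (3.73% of all windows) and the ETS motif CCGGAAGT (3.89%) were also found in 0 member windows. The E2F motif TTTCGCGC was found in 1 Dnmt1 window and 1 Uhrf1 window, against 0.323% of all windows. These 2 windows held 33 CpG each, and no share was taken over windows of like CpG content. TTTGGCGC, another E2F form, was found in 1 Dnmt1 window (0.514% of all windows). The CRE TGACGTCA (1.79%) was found in 0 member windows and the E-box CACGTG (7.15%) in 1 Dnmt3a window. The CCAAT box (37.4%) was found in windows of Dnmt1, Uhrf1 and Ahcy. A motif match or its lack describes these letters only.

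Between 10130 and 10981 probes were detected on each of the 5 arrays, and the 75th percentile of the scanner signal was 178 on the untreated array and 137 to 153 on the others. The additive fit left a median departure of 0.27 in size on the log2 scale over 9613 probes. If all of that were random, a difference between 2 arrays would have an SD of 0.20. Levels below are background-corrected, quantile-normalized log2 signals, and an error is the bead-level standard error, which covers the measurement on the array and leaves out culture, extraction and hybridisation. The brightness of different probes also depends on the probe, so levels were compared between arrays. A rank among the probes of an array describes signal and not the amount of transcript. Known targets of the 3 pathways changed in the additive fit: the ERK target Egr1 fell with PD (effect -2.87), the Wnt target Axin2 rose with CH (1.54), and the STAT3 target Socs3 rose with LIF (2.12; limma, adjusted p = 2.8e-109, 4.34e-32 and 1.44e-53). These targets did not answer to 1 agent each: Egr1 also fell with LIF (effect -0.50, limma, adjusted p = 0.0135). Socs3 also fell with PD (effect -0.68, limma, adjusted p = 2.5e-05). All 7 epiblast markers on the list were detected on every array, and their median difference from untreated was -0.59 with PD, -0.20 with CH, -0.01 with LIF and -0.55 with PCL. They did not move one way: with PD, Fgf5, Utf1, Sox2 and Tdgf1 fell and Nanog rose (effect 0.49, limma, adjusted p = 0.000963). With CH, Fgf5 and Otx2 fell (effects -0.48 and -0.45, limma, adjusted p = 0.00683 and 0.00468), and 0 markers passed for LIF. Of 13 feeder fibroblast markers 9 were detected on at least 1 array, and Col1a2, Col3a1, Postn and Pdgfrb were on none. The mean log2 level of those 9 was 8.02 in untreated cells, 7.71 with PD, 8.01 with CH, 7.94 with LIF and 7.95 with PCL. Their median difference from untreated was -0.41 with PD, 0.02 with CH, -0.05 with LIF and -0.01 with PCL, and Pdgfra fell with PD (effect -0.90, limma, adjusted p = 1.43e-05). The part of feeder RNA in the member levels was not tested. In such bulk samples, fewer cells of a type and less RNA per cell cannot be told apart.

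**Figure D1:**
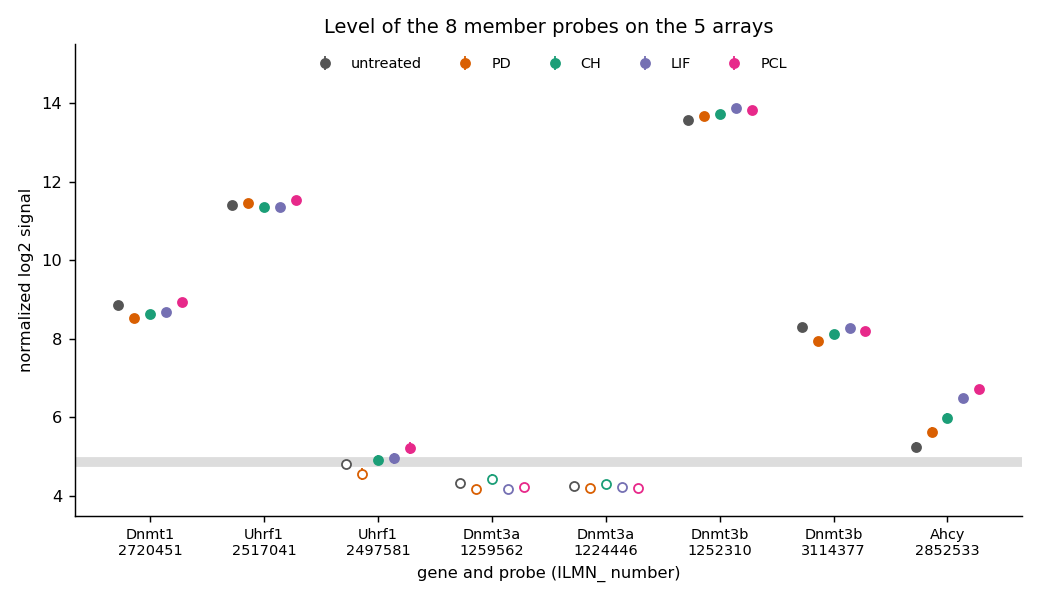
Normalized log2 signal (y axis) of each of the 8 member probes (x axis) on the 5 arrays, with bead-level standard errors that are mostly smaller than the points. Filled points were detected, open points were not, and the grey band spans the lowest detected level of the arrays, 4.77 to 4.98; the Dnmt3a probes lie below it on every array, and Ahcy runs from 5.25 to 6.73.

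Among the maintenance genes, Dnmt1, which copies methylation at replication, was detected on all 5 arrays by its probe ILMN_2720451. Its log2 level was 8.86 in untreated cells, 8.54 with PD, 8.62 with CH, 8.67 with LIF and 8.95 with PCL. The 3 cultures with a single agent lay below the untreated culture, and the combination lay above it. Against untreated, the log2 difference was -0.33 ± 0.11 with PD, -0.24 ± 0.09 with CH, -0.20 ± 0.10 with LIF and 0.08 ± 0.11 with PCL (bead-level SE, 1 array per group). All 4 comparisons share the untreated array. Without it, against the mean of the other single agents, the values were -0.11 with PD, 0.02 with CH and 0.09 with LIF, and PCL was 0.34 above the mean of all 3.

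Dnmt1 departed from additivity, with PCL 0.85 above the sum of the single differences. Of the probes detected on all arrays, 4.53% departed by at least as much, and the departure counts the untreated array with a weight of 2. In the additive fit its effects were -0.01 for PD, 0.08 for CH and 0.12 for LIF, each ± 0.12 (SE of the fit), and none passed. Neighbouring arrays in the order PD, CH, LIF, untreated and PCL were separated by 0.05 to 0.20, less than 2 bead-level standard errors at every step.

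Uhrf1, the protein that recruits Dnmt1 to hemimethylated DNA, had the smallest range of the member probes detected on all arrays. Its probe ILMN_2517041 gave 11.41 in untreated cells, 11.44 with PD, 11.35 with CH, 11.36 with LIF and 11.53 with PCL. The whole range was 0.18, and 91.0% of the probes detected on all arrays had a larger one. Differences from untreated ran from -0.06 to 0.12, each with a bead-level standard error of 0.07 to 0.09. The intervals of the fit (95%) for this probe lay between -0.18 and 0.30 over the 3 terms, so a 2-fold effect lay outside them, as far as the spread estimated by the fit holds.

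The other Uhrf1 probe, ILMN_2497581, was close to background and was detected with CH, LIF and PCL only. Its level was 4.80 in untreated cells and 4.57 with PD, where it was not detected, and 4.91 with CH, 4.95 with LIF and 5.22 with PCL. The untreated value has only an upper bound. Before any error, the fold was at least 1.26 with PCL, at least 1.05 with LIF and at least 1.02 with CH. The folds set the measured level against the lowest level detected on the untreated array. The measured differences were 0.42 ± 0.19, 0.15 ± 0.17 and 0.11 ± 0.16 (bead-level SE), so those of LIF and CH were smaller than their error. Without background correction the difference with PCL was 0.12. With quantile normalization both Uhrf1 probes had their highest level with PCL. For ILMN_2517041 this did not hold with arrays scaled to the same 75th percentile. Its differences from untreated were then -0.008 with PCL, -0.04 with PD, -0.11 with CH and -0.13 with LIF.

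Of the de novo enzymes, Dnmt3a was not well above background on any array by either of its probes. The detection p-value of ILMN_1259562 ranged from 0.139 with CH to 0.900 with PD, and that of ILMN_1224446 from 0.328 with CH to 0.747 with PD. Their scanner signals were 74.2 to 85.0 and 75.4 to 81.4, next to a median of 78.1 to 83.2 for undetected probes of the same arrays. No fold was computed for Dnmt3a. Both probes point to the same RefSeq record, so whether other Dnmt3a transcripts were present was not tested.

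Dnmt3b was detected on all arrays by both of its probes. ILMN_1252310 gave log2 levels of 13.58 in untreated cells, 13.68 with PD, 13.72 with CH, 13.86 with LIF and 13.81 with PCL. The untreated culture was the lowest and LIF the highest. The other probe, ILMN_3114377, which the annotation assigns to a different RefSeq record of Dnmt3b, gave 8.29 in untreated cells, 7.95 with PD, 8.12 with CH, 8.28 with LIF and 8.19 with PCL. On this probe the untreated culture was the highest and PD the lowest, so the probes put the untreated culture at opposite ends.

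The differences of ILMN_1252310 from untreated were 0.10 ± 0.11 with PD, 0.14 ± 0.10 with CH, 0.28 ± 0.11 with LIF and 0.23 ± 0.11 with PCL. Those of ILMN_3114377 were -0.33 ± 0.12, -0.17 ± 0.11, -0.01 ± 0.11 and -0.10 ± 0.10. The probes differed in sign for each of the 4 treatments, which share the untreated array, and the gap between them was 0.44 with PD and 0.30 to 0.33 with the others. Over 1670 genes with at least 2 probes detected on all arrays, taking the 2 with the highest mean, the median gap was 0.15 to 0.17. A gap at least as large as that of Dnmt3b was found for 9.88% of these genes with PD and for 18.6% to 22.7% with the other treatments, and opposite signs were found for 32.4% to 43.8%.

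On both probes LIF was above PD and above CH with quantile normalization. On ILMN_1252310 that order did not hold under every processing. With arrays scaled to the same 75th percentile, its difference from untreated was 0.40 with LIF, 0.49 with PD and 0.41 with CH. In the authors' processed values it was 0.24, 0.19 and 0.26. Without the untreated array, LIF was 0.16 above the mean of PD and CH on ILMN_1252310 and 0.24 above it on ILMN_3114377. In the additive fit the LIF effect was 0.17 ± 0.09 and 0.15 ± 0.12 (SE of the fit), which did not pass for either probe (limma, adjusted p = 0.673 and 0.924). The PD effects were -0.01 ± 0.09 and -0.18 ± 0.12 and the CH effects 0.03 ± 0.09 and -0.02 ± 0.12, and none passed.

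ILMN_1252310 lay at the top of the measuring range, and its differences varied with the normalization. It had the 43rd highest signal of the untreated array, and the 33rd, 29th, 12th and 17th with PD, CH, LIF and PCL. Its scanner signal was 13947 in untreated cells, 13102 with PD, 13038 with CH, 14722 with LIF and 13723 with PCL. The log2 ratios of these signals to untreated were -0.09, -0.10, 0.08 and -0.02, while the medians over probes detected on all arrays were -0.45, -0.40, -0.27 and -0.36. Among the 92 probes with an untreated signal above 10000 those medians were -0.27, -0.27, -0.15 and -0.32. With arrays scaled to the same 75th percentile in place of quantile normalization, the differences of this probe were 0.49, 0.41, 0.40 and 0.43. Whether the signal was limited by the scanner was not tested.

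**Figure D2:**
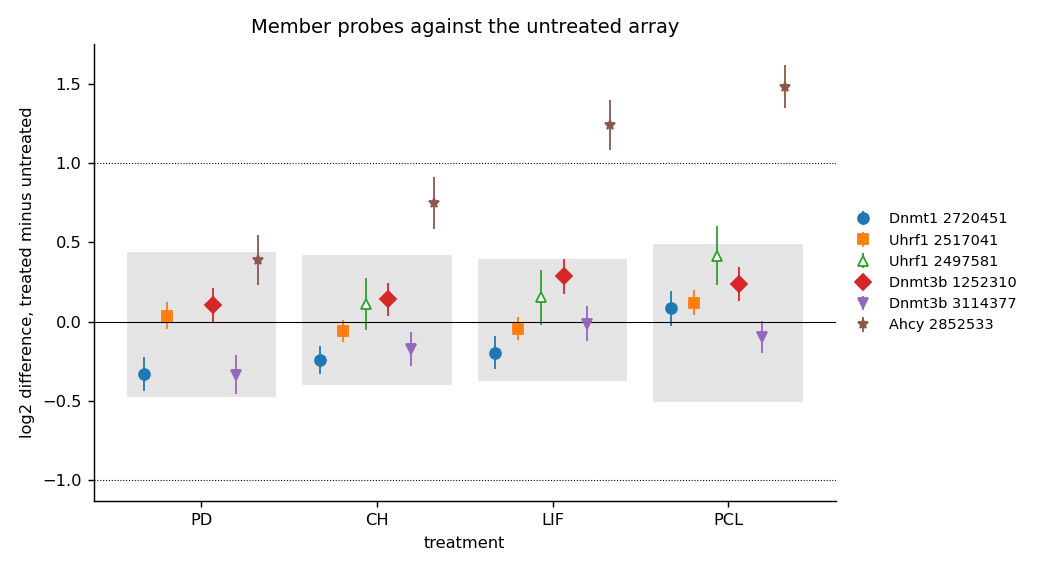
Log2 difference from the untreated array (y axis) of the 6 member probes detected on at least 1 array, for each treatment (x axis), with bead-level standard errors. Grey boxes hold the central 90% of 12049 detected probes and dotted lines mark 2-fold; Ahcy lies above the box with CH, LIF and PCL, while the probes of the other genes lie within the boxes. Open symbols mark a probe not detected in untreated cells, and a difference with both arrays undetected is left out.

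Ahcy, the enzyme that removes S-adenosylhomocysteine, was the member that differed most between conditions. Its only probe, ILMN_2852533, gave log2 levels of 5.25 ± 0.11 in untreated cells, 5.64 ± 0.11 with PD, 5.996 ± 0.12 with CH, 6.49 ± 0.11 with LIF and 6.73 ± 0.08 with PCL. The 2 cultures that received LIF lay above the 3 that did not. Of probes detected on all arrays, 0.385% had a larger range than the 1.48 of Ahcy. The steps in this order were 0.39, 0.36, 0.49 and 0.24, or 1.80 to 3.07 bead-level standard errors, and the last, from LIF to PCL, was the smallest in both measures.

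Against untreated, Ahcy was 2.36-fold higher with LIF (log2 difference 1.24 ± 0.16) and 2.79-fold higher with PCL (1.48 ± 0.14). It differed by 0.75 ± 0.16 with CH and 0.39 ± 0.16 with PD. Ahcy was the only member at least 2-fold different, as 1 of 4 detected members with LIF and 1 of 4 with PCL, against 0 of 4 with PD and with CH. Over all detected genes the share past 2-fold in either direction was 0.0766% with LIF, 1.1% with PCL, 0.792% with PD and 0.19% with CH. The share at least 2-fold higher was 0.0255% with LIF, which is 2 of 7838 genes, 0.372% with PCL, 0.145% with PD and 0.114% with CH. The share at least 2-fold lower was 0.051%, 0.732%, 0.647% and 0.0761% in the same order. The direction of these calls varied with the scaling: 11 genes were higher and 49 lower with PD, against 43 and 49 with 75th-percentile scaling. The numbers were 9 and 6 against 31 and 6 with CH, 2 and 4 against 6 and 6 with LIF, and 29 and 57 against 46 and 58 with PCL. Ahcy did not reach 2-fold with LIF or PCL without background correction, with an offset of 50 in that correction, or against references other than the untreated array alone.

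The additive fit asks for the effect of each agent over all 5 arrays. Ahcy rose with LIF by 0.91 ± 0.15 (SE of the fit, limma, adjusted p = 3.37e-06), and it was the only 1 of the 6 detected member probes that passed for any term. Over its alternatives that adjusted p ran from 1.48e-06 to 0.759, the latter in the authors' processed values, where 0 probes of the array passed and 663 had an unadjusted p under 0.05. Of all 12049 probes 0.722% passed for LIF, with 0.249% rising and 0.473% falling. For PD and CH 0 of the 6 member probes passed, against 2.56% of all probes for PD (0.788% rising, 1.78% falling) and 1.16% for CH (0.614% rising, 0.548% falling). At an unadjusted p under 0.05 0 member probes passed for PD, 1 for CH (Ahcy) and 2 for LIF (Ahcy and the Dnmt3b probe ILMN_1252310), where 10.6%, 10.7% and 7.12% of all probes did. The Ahcy effect was 0.41 ± 0.15 for CH (adjusted p = 0.218) and 0.05 ± 0.15 for PD (adjusted p = 0.96). The fit shares 1 spread among probes of like intensity and has 1 residual degree of freedom, so these p-values do not measure variation between cultures. No weight went to a probe's own departure from additivity, which for Ahcy was -0.89 (PCL minus the sum of the single differences). Without the intensity trend that departure had some weight, and the adjusted p of Ahcy for LIF was 0.00345 (limma). It had more weight in the authors' processed values, where the adjusted p was 0.759.

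The 3 single differences of Ahcy sum to 2.37, and PCL was 0.89 below that sum. Of the probes detected on all arrays 3.81% departed by at least as much in either direction. The untreated level enters each of the single differences. Among the treated cultures, LIF was 0.85 ± 0.15 above PD and 0.49 ± 0.16 above CH, and PCL was 1.10 ± 0.13 above PD, 0.74 ± 0.14 above CH and 0.24 ± 0.14 above LIF. Without the untreated array, LIF was 0.67 above the mean of PD and CH, CH was -0.07 from the mean of PD and LIF, and PD was -0.61 from the mean of CH and LIF. On that reference 0 members reached 2-fold in any comparison.

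Ahcy was dim, and its fold depended on how background was treated. Its scanner signal was 113 in untreated cells, 107 with PD, 121 with CH, 157 with LIF and 163 with PCL. The median of undetected probes was 83.2, 79.3, 79.0, 81.0 and 78.1 on these arrays, which leaves 29.7, 27.4, 42.3, 75.9 and 84.6 above it. The untreated culture had a detection p-value of 0.00125 and a level of 5.25, where the lowest detected level was 4.89, and the treated cultures had a detection p-value of 0. Its place by signal among the probes of each array, which no scaling alters, was percentile 63.9 in untreated cells, 68.0 with PD, 71.4 with CH, 75.5 with LIF and 77.5 with PCL. Without background correction the log2 difference was 0.53 with LIF and 0.66 with PCL, and with the authors' processed values it was 1.77 and 2.06.

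**Figure D3:**
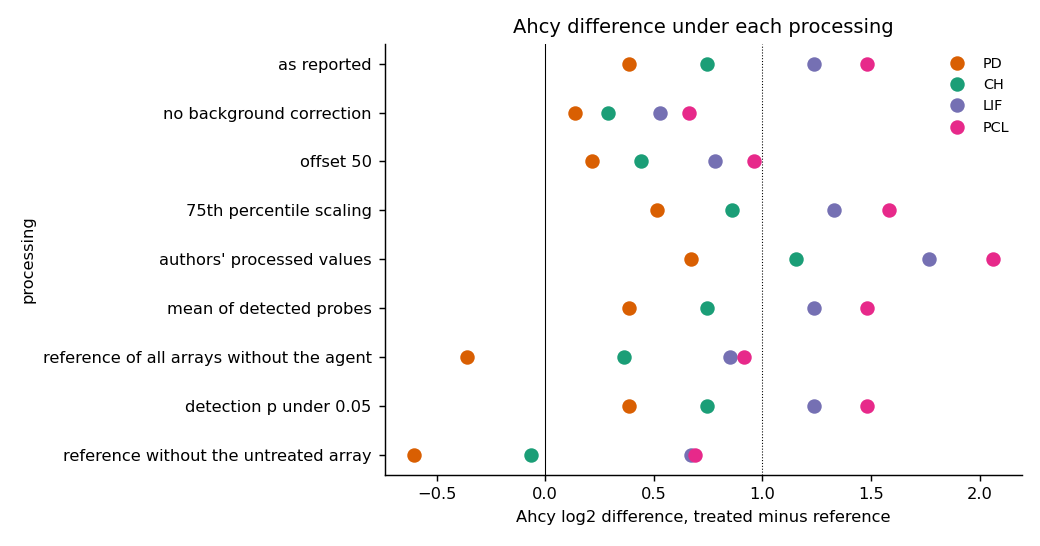
Log2 difference of Ahcy from its reference (x axis) for the 4 treatments, as reported and under 8 other ways of processing (y axis), with a dotted line at 2-fold. The mean of detected probes and the other detection limit cannot change these values, since Ahcy has 1 probe. LIF lies between 0.53 and 1.77 and PCL between 0.66 and 2.06, while PD and CH are below 0 with a reference that leaves out the untreated array, and PD also against the median of all arrays without the agent.

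Ahcy was the only member whose level ranged over at least 1 log2 unit, and the genes with the nearest profile were looked up for it. The measure was the root-mean-square difference of log2 levels over the 5 arrays, after each gene's mean was subtracted, among 8352 other detected genes, for which its median was 0.56. The nearest was Stat3, the transcription factor activated by LIF receptors, at 0.20. Its levels were 6.90 in untreated cells, 6.95 with PD, 7.03 with CH, 7.81 with LIF and 7.97 with PCL. The next were Vmn1r199, a vomeronasal receptor gene detected on 2 arrays only, at 0.25, and Tfap2c, a transcription factor of the AP-2 family, at 0.26. Stat3 and Tfap2c were nearly level over the cultures without LIF, where Ahcy ranged over 0.75.

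**Figure D4:**
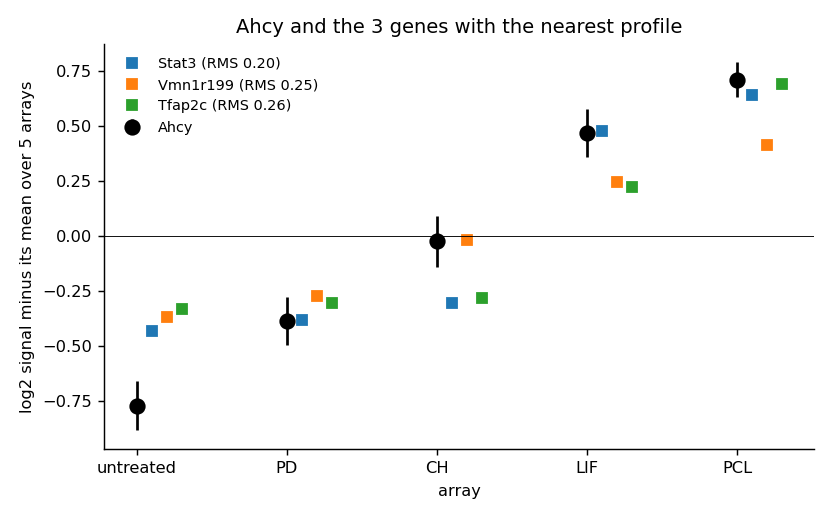
Log2 signal minus its mean over the 5 arrays (y axis) for Ahcy, with bead-level standard errors, and for the 3 genes with the smallest root-mean-square (RMS) difference from it, by array (x axis). All 4 genes are higher in the 2 cultures with LIF than in the 3 without, and Ahcy spreads more than the others over those 3. The other genes were chosen on these same arrays for nearness to Ahcy, so a shared pattern follows from the choice. Vmn1r199 was detected on 2 arrays only, and its values on the others are upper bounds.

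A list of 56 genes was drawn up for cofactors of the methyltransferases, methyl-CpG readers, demethylation, the methyl cycle and the folate cycle, of which 44 had a named probe and 37 were detected. In the additive fit 1 of the 37 rose and 1 fell with PD, 1 rose with CH, and 0 passed with LIF (limma; 5, 3 and 5 at an unadjusted p under 0.05). Over all probes 2.56% passed for PD, 1.16% for CH and 0.722% for LIF, and 10.6%, 10.7% and 7.12% at the unadjusted limit. The median difference of the 37 from untreated was -0.04 with PD, 0.01 with CH, 0.08 with LIF and 0.05 with PCL, against medians between -0.01 and 0.00 over 8353 detected genes.

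Uhrf2, a relative of Uhrf1 that also binds modified DNA, was the gene that rose with CH, by 0.49 ± 0.11 (SE of the fit, limma, adjusted p = 0.00143). Its log2 levels were 10.41 in untreated cells, 10.30 with PD, 10.65 with CH, 10.17 with LIF and 10.97 with PCL. The 2 cultures with CH were the highest, and the difference of CH alone from untreated was 0.24 ± 0.05. The demethylation list held both calls for PD. Of its 9 genes 5 were detected, namely Tdg, Smug1, Apex1, Gadd45a and Gadd45b. Tet3 had a probe but was not detected, and 3 genes had no named probe, so no Tet gene was among those detected. The stress gene Gadd45a fell (log2 difference from untreated -1.03 ± 0.13) and its relative Gadd45b rose (0.89 ± 0.15), each with the same direction in PCL (-1.09 and 0.96). Gadd45a was also the only one of the 37 genes past 2-fold, with PD and with PCL.

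Of 10 detected methyl cycle genes 0 passed for any agent (limma; 1 for PD, 1 for CH and 2 for LIF at an unadjusted p under 0.05). At the shares of all probes given above, 10 genes are too few to read this as a result about the list. Ahcyl1 and Dnmt3l are given here although they fall outside the naming rule and were chosen after their values were seen. Ahcyl1, which encodes a protein related to Ahcy, had levels of 9.45 in untreated cells, 9.14 with PD, 9.42 with CH, 9.55 with LIF and 9.41 with PCL. Its LIF effect in the fit was 0.18 ± 0.11 (limma, adjusted p = 0.851). Dnmt3l, which has no catalytic activity and stimulates the de novo enzymes, had levels of 7.47, 7.05, 7.34, 7.57 and 7.26 in the same order, and its PD effect was -0.33 ± 0.13 (adjusted p = 0.245).

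**Figure D5:**
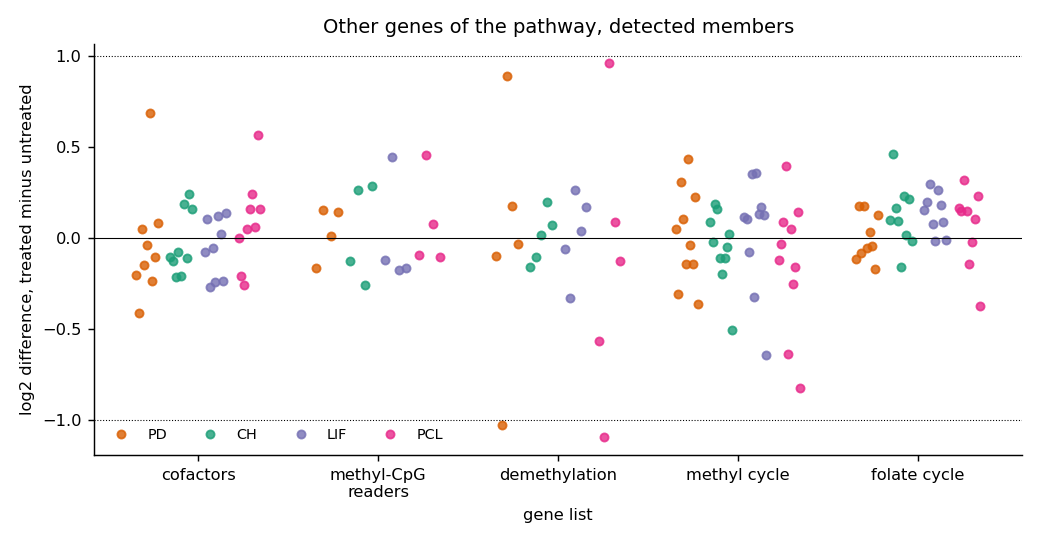
Log2 difference from the untreated array (y axis) of the 37 detected genes of the 5 pathway lists (x axis), by treatment, with dotted lines at 2-fold. Gadd45a in the demethylation list is the only point beyond 2-fold, with PD and with PCL.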

How the data were processed

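Total RNA of 5 cultures, 1 per condition, was hybridised to Illumina single-colour bead arrays. Per the file headers, the deposited tables give for each probe a signal intensity, its standard error over beads and a detection p-value. Per the submitters' processing notes they come from BeadStudio (version not stated). The intensity values were treated as not normalized. A further deposited table holds intensity values processed by the authors (whole numbers, the same median of 65 on every array, method not stated). It served as an alternative, where 16 replaced empty cells and anything lower.

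Signals were corrected by normexp with negative-control levels inferred from detection p-values (offset 16), quantile-normalized and put on a log2 scale with limma 3.58.1 in R 4.3.3. The offset compresses differences of dim probes. For gene-level counts the probe of highest mean stood for its gene. The additive limma fit (lmFit, and eBayes with an intensity trend) had 1 presence term per agent over 12049 probes detected on at least 1 array, with Benjamini-Hochberg adjustment and a limit of 0.05, and was tested on simulated data. "Rose" and "fell" of a gene refer to it. A bead-level standard error was carried to the log2 scale along each array's own mapping. The number of arrays limits the precision. Pathway genes were named when they passed the fit or differed 2-fold. Profiles were matched for members ranging over at least 1 log2 unit, and 3 genes were named. Members, lists and rules were chosen with earlier results of these data known. Alternatives concerned background, offset, scaling, reference, probe choice, detection limit, trend and filters. No genome was used, and promoter windows came from a RefSeq table.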

Additional observations from a re-analysis of the deposited data

How the results depend on the processing

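With 1 array per group, no replicate could be left out, and no comparison has an error between cultures. No paired analysis was possible because each group has 1 sample and the labels carry no replicate numbers. Ahcy stayed above its reference with LIF and PCL under all 8 alternatives. The mean of detected probes and the looser detection limit could not alter it, since Ahcy has 1 probe, detected on every array. Under the others the size of the Ahcy difference varied. Its log2 difference with LIF was 0.53 without background correction, 0.78 with an offset of 50, 1.77 in the authors' processed values, 0.85 against the median of all arrays without the agent and 0.67 against a reference without the untreated array, an alternative chosen after seeing the data. With PCL it was 0.66, 0.96, 2.06, 0.92 and 0.69 in the same order. The count of members past 2-fold was therefore 0 rather than 1, with LIF and with PCL, under all of these except the authors' values, where it was 1 for each and also 1 rather than 0 for CH. Without correction the background stays in the signal, and a larger offset compresses dim probes; for the other settings the cause was not tested. In the additive fit, the LIF effect of Ahcy lay between 0.42 and 1.20. In the authors' values it was 1.20 ± 0.38 and did not pass, and the count of member probes for LIF was 0 there rather than 1. Over all probes the LIF term passed 30 rising and 57 falling, against 16 and 11 without the intensity trend and 17 and 51 with 75th-percentile scaling. For CH it was 74 and 66, against 43 and 23 without the trend and 39 and 30 with that scaling, and for PD 95 and 214, against 56 and 173 with that scaling. In the authors' values 0 passed for each term. Genes past 2-fold, higher and lower, were 11 and 49 with PD, 9 and 6 with CH, 2 and 4 with LIF and 29 and 57 with PCL. They were 4 and 13, 3 and 2, 1 and 2, and 10 and 16 without background correction, 4 and 25, 7 and 2, 1 and 2, and 11 and 29 with an offset of 50, 43 and 49, 31 and 6, 6 and 6, and 46 and 58 with 75th-percentile scaling, and 41 and 94, 26 and 20, 12 and 20, and 65 and 101 in the authors' values. They were 6 and 33, 9 and 2, 2 and 1, and 15 and 27 against the median of all arrays without the agent, and 7 and 33, 19 and 1, 6 and 3, and 10 and 9 without the untreated array. Of 138 log2 differences of single member probes under alternatives, 49 moved by more than their bead-level standard error. Among those, the bright Dnmt3b probe gave -0.11 with PD and -0.05 with CH without the untreated array. Outside that count, the mean of both Dnmt3b probes differed from untreated by -0.12 with PD and -0.02 with CH. Signal over background limits Ahcy and the dim Uhrf1 probe, and gives only a bound for Dnmt3a.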

Other observations

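Replication genes, which are transcribed with Dnmt1 and Uhrf1 as cells enter S phase, gave a further view of the same arrays. Of 20 listed genes 19 had a named probe and 17 were detected, among them the helicase subunits Mcm2 to Mcm7 and the ribonucleotide reductase subunits Rrm1 and Rrm2. In the additive fit 0 of the 17 passed for PD, CH or LIF (limma; 1, 0 and 1 at an unadjusted p under 0.05), where over all probes 2.56%, 1.16% and 0.722% passed (10.6%, 10.7% and 7.12% at the unadjusted limit). Their median log2 difference from untreated was 0.02 with PD, 0.04 with CH, 0.08 with LIF and 0.07 with PCL. The corresponding values of Dnmt1 were -0.33, -0.24, -0.20 and 0.08, and those of the bright Uhrf1 probe 0.04, -0.06, -0.05 and 0.12.

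Values near the pathway's edges that did not pass include Nnmt, an enzyme that methylates nicotinamide at the expense of S-adenosylmethionine, chosen after its values were seen. Its log2 level was 5.70 in untreated cells, 5.33 with PD, 5.19 with CH, 5.05 with LIF and 4.87 with PCL, and the bead-level standard error of its difference from untreated was 0.21 to 0.25. The difference of PCL from untreated was -0.83 ± 0.25, and its LIF effect was -0.39 ± 0.18 (SE of the fit, limma, adjusted p = 0.624).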
